A study of Xenopus tropicalis with 26 samples.

Results

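Embryos of *Xenopus tropicalis* kept in high K+ medium and sampled 5 to 6 h after stage 8 were compared with embryos in the same medium sampled 0 to 1 h after stage 8. The comparison used 6 of the 26 samples of a whole-embryo RNA-seq time course: those taken at 5, 5.5 and 6 h after stage 8 against those taken at 0, 0.5 and 1 h. They were chosen by labelled medium and time, and of 34192 listed genes the 16276 with enough signal were tested. The high K+ embryos were kept in 10 mM KCl, although the general description of the medium in the methods gives another concentration, and the 6 control samples of the same hours came from embryos in 1/9X MR, a dilute Ringer's medium. Each sample pooled 10 embryos, and harvests were 30 min apart from stage 8 on. The methods name stage 13 as the end of the course and a legend names stage 12. Each medium was followed in 1 course without biological replicates, so the 3 samples of a window are successive time points, and the p-values below measure only the spread between them. The labels name no allele, transgene or injected reagent for these embryos.

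An early frog embryo divides on RNA and protein stored in the egg, with its own genome almost silent. At the midblastula transition the zygotic genome is switched on, stored RNA is degraded, and during gastrulation the germ layers acquire separate gene programmes. Raising external K+ depolarizes cells, and the comparison asks how much of that exchange of RNA was completed in embryos kept in high K+.

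Values are abundances that the authors corrected against spike-in RNAs, without read counts, so the depth behind each value is unknown. A change is the mean of log2(abundance + 1) at 5-6 h minus that at 0-1 h, and its SE comes from the fit to 3 and 3 samples. A gene was called higher or lower where limma gave a Benjamini-Hochberg adjusted p under 0.05 and the change was at least 1 on the log2 scale. An exact permutation test of 3 against 3 samples cannot go below 0.1 and was not used. In bulk RNA, fewer cells of a kind and less RNA per cell cannot be told apart.

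Over the 26 samples between 13862 and 15562 genes exceeded an abundance of 0.4, and the level of the spike-in RNAs lay between -0.58 and 0.65 on the log2 scale. A single row took between 36.5% and 100.0% of the summed abundance of a sample, so sums were not used for scaling. In high K+ the spike-in level was -0.13, 0.14 and -0.17 at 5, 5.5 and 6 h, against 0.65, -0.22 and 0.09 at 0, 0.5 and 1 h. Its value at 0 h stood above those of the other high K+ samples, and results that rest on that sample are given with and without it.

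The exchange of RNA in high K+ was broad. Of the tested genes, 2728 (16.8%) were higher at 5-6 h and 6536 (40.2%) were lower. Overlapping values in the 2 windows were found in 87 of these 9264 called genes, and the rule for a call makes overlap rare. Over all tested genes, 3693 had every late sample above every early one and 8489 had every late sample below. The called rises had a median change of 2.22 and the called falls one of -1.93. Falls outnumbered rises among changes of at least 2 on the log2 scale (3059 lower, 1548 higher) and of at least 3 (1094 lower, 909 higher). Only among the largest changes were rises more frequent, with 523 higher and 296 lower by at least 4, and 270 higher and 61 lower by at least 5. Without the sample at 0 h, 2538 genes were higher and 6939 lower. The split depended on the scaling of samples: rises made up 29.4% of calls as deposited, 35.1% with samples brought to a common spike-in level (2866 higher, 5288 lower) and 57.3% with samples set to a common median ratio (4470 higher, 3328 lower). The median change of all tested genes was -0.67 as deposited, -0.49 with spike-in scaling and 0.12 with the median ratio, and the changes below should be read against that shift.

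Among the 10 rises with the largest fitted changes, the highest final level was that of the keratin gene *krt* (gene17253). It stood at 3364, 4329 and 4136 at 5, 5.5 and 6 h, against 44.2, 0.596 and 5.48 at 0, 0.5 and 1 h. Its lowest late sample lay far above its highest early one, as the choice of the largest rises favours. The change was 8.98 ± 1.05 (SE, limma adjusted p = 0.000228), and 10.25 without the sample at 0 h, where *krt* was highest within its window. A related keratin gene, *krt5.7*, was at 2064, 2128 and 2919 at 5-6 h and at 7.87, 3.00 and 31.3 at 0-1 h, a change of 7.81 ± 0.68. Keratins form the intermediate filaments of epidermis.

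Other genes of this group belong to different territories. The homeobox gene *msx1*, a target of BMP signalling in ectoderm, was at 564, 608 and 603 at 5-6 h, against 3.00, 0.728 and 1.31 at 0-1 h (change 7.88 ± 0.32). *hesx1*, a homeobox repressor of the anterior neural plate, was at 494, 655 and 649 at 5-6 h and at 2.59, 0 and 2.38 at 0-1 h (change 8.02 ± 0.49). *ag1*, a gene of the cement gland, was at 765, 721 and 948 at 5-6 h and at 5.56, 1.62 and 1.80 at 0-1 h (change 7.79 ± 0.37). None of these genes overlapped between windows, which their selection by the size of the change favours. *darmin*, known from frog endoderm, changed by 8.25 ± 0.51, *gatm*, an enzyme of creatine synthesis, by 7.82 ± 0.43, the actin-binding gene *tagln2* by 8.90 ± 0.46 and the complement gene *cfd* by 7.77 ± 0.43. *celf3* (gene16237), an RNA-binding protein of neurons, was at 378, 628 and 1086 at 5-6 h and was listed at 0 in all 3 samples of 0-1 h. Its place among the largest changes therefore depends on the pseudocount, and its course between the windows was uneven, with 136 at 1.5 h and 0 at 2.5 h.

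The 10 falls with the largest changes were mostly of genes known from the egg and from the cleavage cell cycle. *zfp36l2.1*, of a family that binds AU-rich elements and promotes RNA decay, was at 1.45, 1.24 and 0.590 at 5-6 h, against 1456, 783 and 901 at 0-1 h. The level left at 5-6 h was 0.104% of that at 0-1 h, and the change was -8.94 ± 0.30 (limma adjusted p = 4.86e-06). Its close relative *zfp36l2.2* was at 6.02, 3.46 and 3.25 at 5-6 h and at 3878, 1796 and 1858 at 0-1 h. Reads common to such paralogs are divided between them by estimation, so their separate levels are less certain than their joint fall.

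Cyclins and regulators of Cdk1 were among the deepest falls. *ccna1*, the A cyclin of oocytes and early embryos, was at 14.9, 17.2 and 5.55 at 5-6 h, against 3635, 2844 and 2127 at 0-1 h (change -7.82 ± 0.41). *ccnb1*, a B cyclin that drives mitosis, was at 20.2, 23.4 and 10.7 at 5-6 h, against 1900, 3075 and 1993 at 0-1 h (change -6.96 ± 0.33). *wee2*, a kinase that restrains Cdk1, was at 14.9, 18.8 and 7.74 at 5-6 h and at 2438, 1487 and 2494 at 0-1 h (change -7.22 ± 0.35). The lowest early sample of each of these 3 genes lay above its highest late sample, as the choice of the largest falls favours. *spdyc*, an activator of Cdks, changed by -6.78 ± 0.29 and left 0.805% of its early level.

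Regulators of stored RNA were also among them. *btg4*, which recruits a deadenylase to maternal RNA in mouse eggs, was at 6.88, 1.14 and 1.09 at 5-6 h, against 886, 666 and 322 at 0-1 h (change -7.46 ± 0.59). *cpeb1*, which controls polyadenylation of stored RNA, was at 1.80, 1.59 and 1.64 at 5-6 h, against 517, 339 and 232 at 0-1 h (change -7.01 ± 0.31). Both had begun to decline within the opening hour. *dand5*, a maternal antagonist of Nodal and BMP ligands, changed by -6.92 ± 0.32. *pou5f3.3*, the maternal homolog of Oct4, completed the group and is described with the pluripotency factors.

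**Figure D1:**
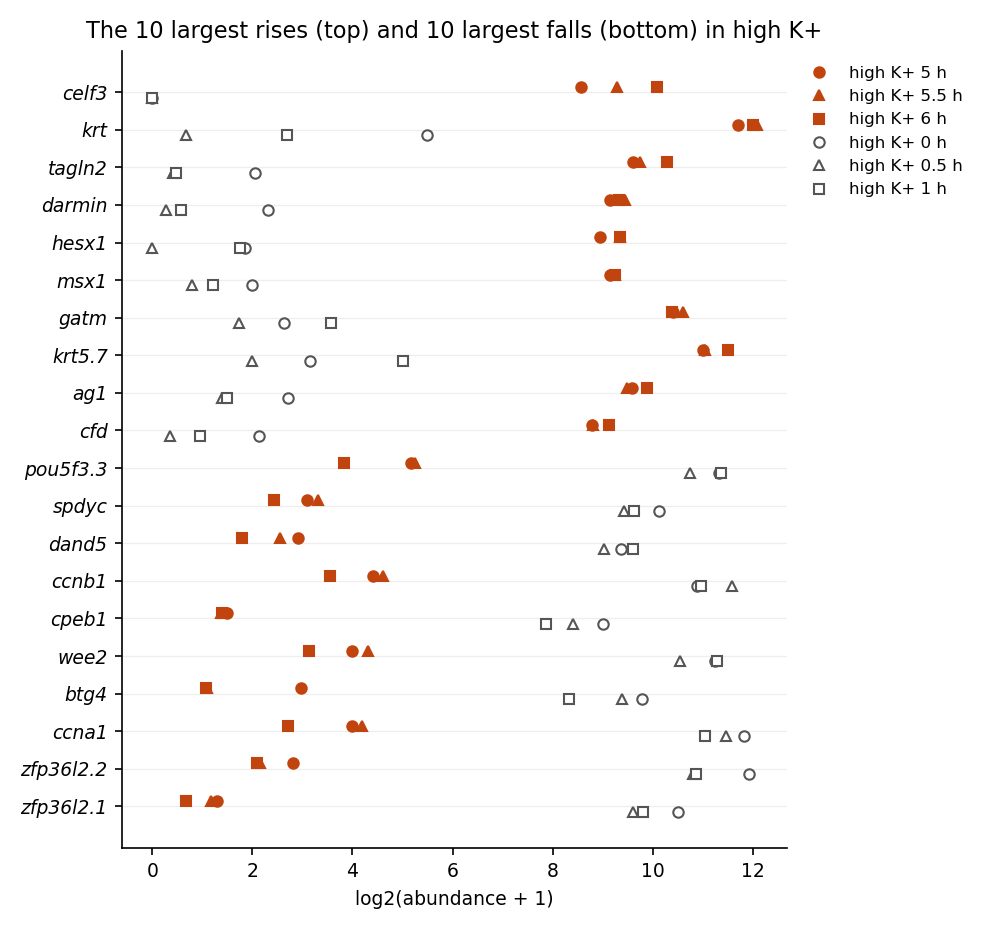
Abundance of the 10 genes with the largest called rises (upper rows) and the 10 with the largest called falls (lower rows) in high K+, as log2(abundance + 1) on the horizontal axis. Filled symbols are the samples at 5, 5.5 and 6 h and open symbols those at 0, 0.5 and 1 h. In each row the filled and open symbols do not overlap, as the choice of genes by the size of the change favours. In *krt* the open circle of 0 h (44.2) stands to the right of the other early samples.

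How much of the starting RNA was lost could be read from the 8879 tested genes at 10 or more in every high K+ sample of 0-1 h. A median of 40.8% of their early abundance was left at 5-6 h in high K+, and of 37.2% in control. In high K+, 4990 of them were called lower, 551 higher and 3338 were not called. Less than 10% was left for 1007 of them in high K+ and for 1159 in control, and less than 5% for 403 in high K+ and 503 in control. These percentages carry the scaling of the deposited values.

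A stricter rule took genes at 10 or more in every early sample whose highest late sample was under 10% of the lowest early one. By this rule 537 genes were cleared in high K+ and 568 in control, 430 of them in both, or 80.1% of the high K+ set and 75.7% of the control set. The converse rule, under 1 in every early sample and 10 or more in every late one, took 263 genes as switched on in high K+ and 324 in control. Of these 192 were in both, or 73.0% of the high K+ set and 59.3% of the control set. Here the samples at 0 h mattered. Without them the counts were 325 in high K+ and 330 in control with 238 in both, and those of cleared genes were 754 in high K+ and 965 in control.

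The high K+ values at 0 h included low levels of late transcripts. Whether these were in the embryos or entered the sample afterwards was not tested. To describe them, the 40 genes under 1 at 0.5 and 1 h in both conditions and at 100 or more in every high K+ sample of 5-6 h were taken. At 0 h, 32 of them were above 0 in high K+, at a median of 0.648% of their own level at 5-6 h, and 10 were above 0 in control, where the median was 0. A single unnamed gene, gene13200, seen after its values were known, stood out at 18200 in high K+ and 386000 in control at 0 h. In 31 of them the high K+ sample at 0 h was above both later samples of its window, which held for 7 in control. *msgn1* was at 1.80, 0 and 0 at 0, 0.5 and 1 h in high K+ and listed at 0 at those times in control. *crabp2* was at 2.09, 0.0609 and 0 in high K+ at these times and at 0, 0.0559 and 0 in control. All 40 were called higher with and without that sample, with a median fitted change of 7.54 with it and 7.95 without it. These genes were chosen by their values, so the counts describe the sample and carry no test.

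The same windows were compared in control to see where high K+ stood relative to normal development. In control 2661 genes (16.3%) were higher at 5-6 h and 6984 (42.9%) were lower, and the median change of all tested genes was -0.75. Of the rises, 2352 were called in both conditions, which is 86.2% of those in high K+ and 88.4% of those in control. Of the falls, 6071 were called in both, which is 92.9% of those in high K+ and 86.9% of those in control. Genes called higher in high K+ but not in control numbered 376, and 356 of them had a positive change in control as well, with a median of 1.24 in high K+ and 0.81 in control. Only 2 genes called higher in high K+ were called lower in control, and no gene called lower in high K+ was called higher in control. These counts are of the values as deposited, and the gap in falls depended on the scaling. Once samples shared a spike-in level, control had 7584 falls and 2326 rises, against 5288 falls and 2866 rises for high K+. The median change of all tested genes was then -1.005 in control and -0.494 in high K+. At a common median ratio, falls numbered 3478 in control and 3328 in high K+.

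Over the 16276 genes the changes in high K+ and control had a Pearson correlation of 0.96 and a Spearman correlation of 0.957. This describes genes within 12 samples, which are not independent replicates. The median absolute difference of the changes was 0.29, and 606 genes (3.72%) differed by at least 1. As deposited, genes higher in both conditions changed by nearly the same amount, with a median difference, high K+ minus control, of 0.00 and a larger rise in high K+ in 1175 of 2352. For these genes the median difference was 0.292 with spike-in scaling and -0.129 with the median ratio. Genes lower in both fell less in high K+ by a median of 0.18. With spike-in scaling the median difference over all tested genes was 0.56, against 0.12 as deposited and 0.01 with the median ratio, so a difference of this size was within the reach of the scaling.

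**Figure D2:**
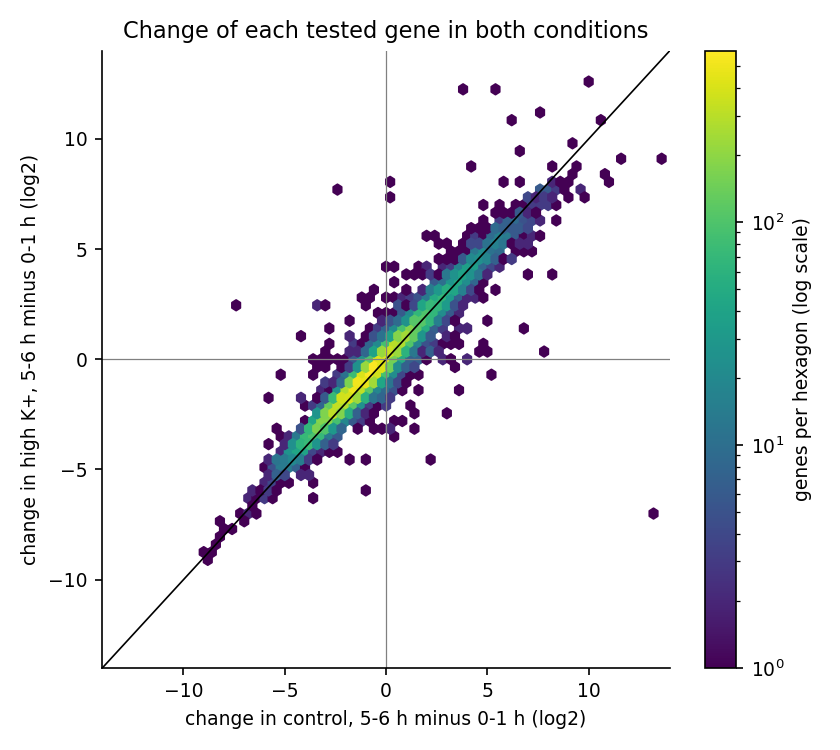
Change of each of 16276 tested genes from both windows, with high K+ on the vertical and control on the horizontal axis, both as log2 differences of 5-6 h minus 0-1 h. Colour gives the number of genes per hexagon on a log scale, the diagonal marks equal change, and 1 gene lies outside the plotted range of 14. The cloud follows the diagonal at both ends, with the bulk of genes below 0 on both axes.

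The test of the difference itself called few genes. The interaction term of limma over 12 samples called 5 genes with a higher change in high K+ (0.0307%) and 3 with a lower one (0.0184%). At an unadjusted p under 0.05 there were 537 genes, or 3.3% of those tested. Each of the 8 called genes has a placeholder name or none and at least 1 group of samples entirely at 0, and 5 of them have 3 such groups. With genes restricted to those above 1 in each of the 12 samples, an alternative chosen after seeing the data, no difference was called and 182 of 10233 had an unadjusted p under 0.05. With the time point as a block in limma, 1179 genes had an unadjusted p under 0.05. The main fit keeps spread shared by samples of the same hour in its error, so few calls do not show that the changes were equal.

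Since none of the called genes has a descriptive symbol, the genes with a symbol, a mean of at least 20 in the highest of the 4 groups and the smallest p are given as values. *azin2*, an antizyme inhibitor of polyamine metabolism, was at 11.9, 18.7 and 15.1 at 5-6 h and at 68.9, 56.8 and 76.3 at 0-1 h in high K+. In control it was at 30.5, 29.0 and 17.8 at 5-6 h and at 44.2, 36.5 and 33.9 at 0-1 h. Its difference was -1.51 ± 0.35 with a limma adjusted p of 0.688. *diablo*, a mitochondrial protein of apoptosis, was at 129, 99.2 and 131 at 5-6 h and at 36.6, 86.7 and 47.2 at 0-1 h in high K+, against 55.5, 41.0 and 53.6 at 5-6 h and 43.4, 100.3 and 101 at 0-1 h in control. Its change in high K+ was 1.15 ± 0.33, and 0.88 without the sample at 0 h, which is under the minimum for a call.

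For 8 of the other 10 genes of this rule the changes had the same sign in both conditions. *rchy1*, a ubiquitin ligase, had a change of 3.46 ± 0.26 in high K+ and 2.31 in control. *nek2* (gene32417), a centrosomal kinase, had 2.49 ± 0.19 in high K+ and 1.57 in control, and *tardbp*, an RNA-binding protein, had 2.07 ± 0.26 in high K+ and 0.94 in control, where it was not called. *senp6*, a SUMO protease, had -1.15 in high K+ and -2.22 in control, and *brd1*, a chromatin reader, had -0.84 in high K+, not called, and -2.10 in control. *ptafr*, the receptor of platelet-activating factor, had 3.13 in high K+ and 4.73 in control, and *scnn1a*, a subunit of the epithelial sodium channel, had 3.74 in high K+ and 4.74 in control, with *scnn1a* listed at 0 in 5 of 6 early samples. *klhdc3* had 0.33 in high K+, not called, and 1.25 in control. The signs differed for *psenen*, a subunit of gamma-secretase, with -1.04 in high K+ and 0.01 in control, and for *gtpbp2* (gene26654), with -1.38 in high K+, not called, and 3.66 in control, where it was listed at 0 in each early sample. Their differences had adjusted p-values of 0.96 in limma.

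The timing of the exchange was read from all 13 samples of each course as the last crossing of the midpoint, on the log2 scale, between the 2 window means. Genes higher in both conditions crossed at a median of 3.02 h in high K+ and 3.1 h in control, with a median difference of 0.00 h over 2343 genes. Genes lower in both crossed at a median of 3.37 h in high K+ and 3.32 h in control, with a median difference of -0.03 h over 6048 genes. Crossings came later in high K+ for 49.8% of the rises and 47.4% of the falls. These medians differed by less than the sampling interval of 30 min.

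Between the windows the paths were less alike. At 1.5 h the median gene of the falls stood at 106% of its early level in high K+ and at 72.2% in control, and at 103% in high K+ and 74.3% in control with spike-in scaling, which was added after seeing the data. At 4.5 h the median gene of the rises stood at 60.2% of its late level in high K+ and at 81.4% in control, and at 54.1% in high K+ and 99.0% in control with spike-in scaling. At 6 h, within the late window, the median gene of the falls stood at 18.0% in high K+ and 14.8% in control. With spike-in scaling it stood at 21.8% in high K+ and 9.34% in control. Each of these points is 1 sample per condition and has no replicate.

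**Figure D3:**
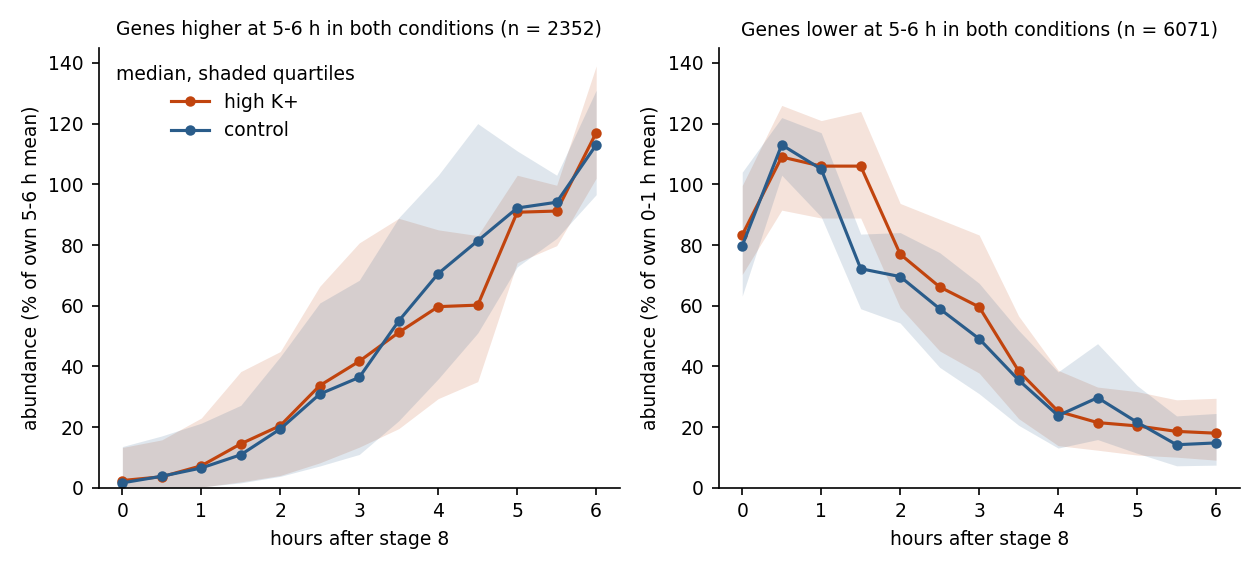
Median abundance over the 13 time points of genes called higher (left, 2352 genes) or lower (right, 6071 genes) at 5-6 h in both conditions, as a percentage of each gene's own late or early window mean. Lines are medians, shading spans the quartiles, and hours count from stage 8. As deposited, the courses of high K+ and control lie near each other at both ends, which follows largely from the scaling and from the choice of genes. They stand apart at 1.5 h on the right and at 4.5 h on the left.

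Gene lists of the germ layers were read first, as a check that these were whole embryos, and genes of each layer rose in high K+. Genes with no early signal passed the filter only through their late samples, so a rise was partly built into the counts. The check therefore shows only that genes of each layer were present. Of members in the file, 11 of 14 endoderm and 31 of 36 neural genes were tested. Over 19 lists, 487 genes passed the filter, and the counts below are of those tested. Each list's count is to be read against the shares of all tested genes, 16.8% higher and 40.2% lower in high K+ and 16.3% higher and 42.9% lower in control. With the median ratio the background in high K+ was 4470 rises and 3328 falls among the 16276 tested genes. Endoderm genes rose in 11 of 11 tested, with a median change of 4.33, against 4.37 in control with 11 of 11 called. Mesoderm and muscle genes rose in 25 of 30, with a median of 4.15, against 24 of 30 and 4.35 in control. Organizer and axial mesoderm genes rose in 11 of 16, with a median of 3.54, against 12 of 16 and 4.30 in control. Neural genes rose in 26 of 31 and fell in 1, with a median of 3.99, against 26 and 1 and a median of 3.64 in control. Epidermal and ventral ectoderm genes rose in 23 of 35 and fell in 3, with a median of 2.89, against 25 and 3 and a median of 2.92 in control. All 5 medians lay above that of all tested genes (-0.67 in high K+) and stayed above 0 under both scalings.

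In endoderm, *cer1*, a secreted antagonist of Nodal, BMP and Wnt ligands, was at 295, 217 and 99.6 at 5-6 h and listed at 0 at 0-1 h in high K+. In control it was at 381, 166 and 104 at 5-6 h and likewise at 0 before. The pioneer factor *foxa1* was at 70.4, 80.4 and 94.0 at 5-6 h and at 0.499, 0.0787 and 0.180 at 0-1 h in high K+, a change of 6.05 ± 0.25, and *gata4*, a zinc finger factor of endoderm and heart, changed by 5.66 ± 0.28. The smallest change of the list was that of *gata5*, at 20.4, 20.6 and 22.3 at 5-6 h and at 9.90, 6.2 and 9.71 at 0-1 h in high K+ (1.23 ± 0.25). The *sox17b.1* and *sox17b.2* paralogs of this list share sequence, which limits their separate values.

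In mesoderm, *msgn1*, a factor of presomitic mesoderm, was at 297, 295 and 306 at 5-6 h and at 1.80, 0 and 0 at 0-1 h in high K+. Control embryos had 303, 312 and 369 at 5-6 h. *cdx2*, a posterior homeobox gene, changed by 7.18 ± 0.22 in high K+ and 7.1 in control. The T-box gene *t* (Brachyury), needed for posterior mesoderm, was at 274, 242 and 163 at 5-6 h and at 0.708, 0.554 and 3.04 at 0-1 h in high K+ (6.66 ± 0.41). It declined across the late window in both conditions. *tpm1*, a tropomyosin, had the smallest change of the list, 0.28 ± 0.16, with 220, 207 and 238 at 5-6 h and 179, 193 and 177 at 0-1 h in high K+.

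The organizer list held secreted antagonists and homeobox genes of the dorsal side. The Wnt antagonist *frzb2* was at 204, 193 and 193 at 5-6 h and at 1.00, 0 and 0 at 0-1 h in high K+, and its relative *frzb* changed by 5.80 ± 0.41. *otx2*, a homeobox gene of the anterior embryo, changed by 7.32 ± 0.24 in high K+ and 7.81 in control. *not*, a homeobox gene of the notochord, was at 116, 106 and 105 at 5-6 h and at 23.2, 97.2 and 320.0 at 0-1 h in high K+, so its early samples lay on both sides of the late ones. Its change was 0.27 ± 0.81, and -0.69 without the sample at 0 h. The change was smaller in high K+ than in control for 15 of 16 genes of this list and 11 of 11 endoderm genes, against 38.1% of all tested genes and 1177 of 2352 genes higher in both. None of these differences had an unadjusted p under 0.05. Without both samples at 0 h the counts were 8 of 16 and 9 of 11. The background was then 42.9% of all tested genes and 1168 of 2352 genes higher in both. With spike-in scaling the counts were 7 of 16 and 2 of 11, against 13.4% of all tested genes and 592 of 2352.

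Neural genes were led by homeobox genes of the neural plate. *gbx2.2*, a homeobox gene of the posterior neural plate, was at 72.5, 62.4 and 69.0 at 5-6 h and at 0.249, 0 and 0 at 0-1 h in high K+ (6.00 ± 0.23). *irx3* was at 169, 130 and 174 at 5-6 h and at 0.669, 0.994 and 5.15 at 0-1 h, a change of 5.85 in both conditions. *elavl3*, an RNA-binding protein of neurons, changed by 5.80 ± 0.37 in high K+ and 6.01 in control. *sox11* had 256, 177 and 260 at 5-6 h and 154, 196 and 270 at 0-1 h in high K+, a change of 0.18 ± 0.27 that did not pass the test. The fall in this list was that of *sox3*.

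In ectoderm the 3 falls were *foxi2*, *cldn6.1* and *grhl1*, named here after their values were seen. *foxi2*, a maternal factor of the animal hemisphere, was at 21.0, 20.8 and 7.77 at 5-6 h, against 1220, 1086 and 1476 at 0-1 h in high K+, a change of -6.28 ± 0.37 against -5.58 in control. The tight junction gene *cldn4* had the smallest change, -0.14 ± 0.25, with 689, 692 and 935 at 5-6 h and 658, 817 and 1108 at 0-1 h in high K+. Among ciliated cell and ionocyte genes 12 of 20 rose and 1 fell in high K+, with a median of 1.97, against 13 and 3 and a median of 2.17 in control. *foxj1*, the regulator of motile cilia, was at 143, 115 and 86.0 at 5-6 h and at 0.381, 0.227 and 1.05 at 0-1 h in high K+ (6.23 ± 0.30). *mcidas* (Multicilin), which starts the multiciliated cell programme, was at 67.4, 89.1 and 73.8 at 5-6 h in high K+, against 93.5, 110 and 121 in control, and its changes were 5.61 and 6.54. Their difference of -0.93 ± 0.34 had a limma adjusted p of 0.96 and an unadjusted p of 0.0169. *ubp1*, an ionocyte factor, changed by 3.40 ± 0.36, and *gmnc*, upstream of *mcidas*, had a change of 0.10 ± 0.39 that was not called. The highest values of *gmnc* lay between the windows, at 3.5 h, with 17.5 in high K+ and 24.8 in control.

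Genes of later organs passed the filter only in part. Of 15 blood, vessel and heart genes 6 passed the filter, and all 6 rose in high K+, with a median of 2.09, against 5 of 6 and 2.44 in control. *lmo2*, a cofactor of blood and endothelium, was at 15.6, 23.1 and 35.3 at 5-6 h and at 0.0556, 0.120 and 0.456 at 0-1 h in high K+ (4.35 ± 0.33). *etv2*, the endothelial factor, changed by 4.00 ± 0.30, the myeloid factor *spib* by 2.63 ± 0.51, and the heart gene *nkx2-5* by 1.1 ± 0.33 at a level of 2.70 or less. Because a gene absent early passed only through its late samples, a rise was built into that count.

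Hox genes, which pattern the anterior-posterior axis, rose in 24 of 30 tested in high K+, with a median of 2.15, against 26 of 30 and 2.28 in control. The highest change was that of *hoxd1*, an anterior member, at 318, 271 and 278 at 5-6 h and 4.15, 3.33 and 3.01 at 0-1 h in high K+ (6.01 ± 0.20). *hoxb1* changed by 5.48 ± 0.25. *hoxb8* was still climbing in the late window, at 20.7, 23.7 and 65.1 at 5, 5.5 and 6 h in high K+ and at 15.3, 33.6 and 61.0 in control. The posterior gene *hoxc13* had 0.630, 0.329 and 0.216 at 5-6 h and 0.167, 0.881 and 0.693 at 0-1 h in high K+, below or near the level of 1 throughout. As in the blood list, a gene with no early signal passed the filter only through its late samples.

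**Figure D4:**
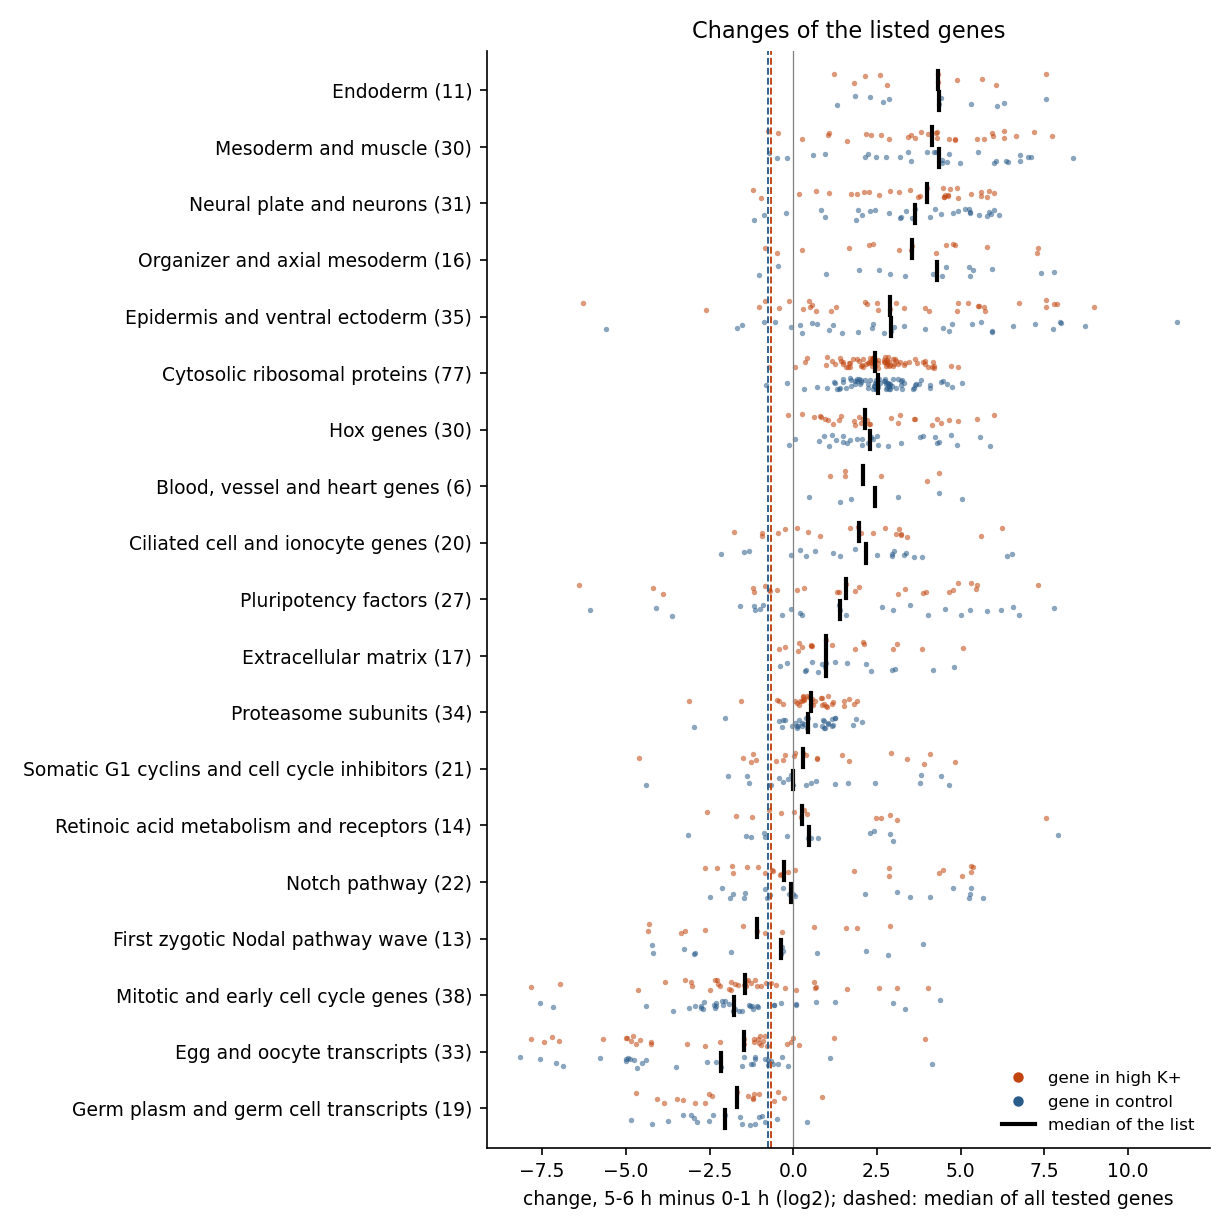
Change of each tested gene of 19 lists, 5-6 h minus 0-1 h on the log2 scale, with high K+ in the upper row and control in the lower row of each list, and the number of tested genes in parentheses. Points are genes, black bars are list medians, and dashed lines are the medians of all tested genes (-0.67 in high K+, -0.75 in control). The germ layer lists lie to the right and the egg, germ plasm and mitotic lists to the left in both conditions.

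Pluripotency factors, which include zygotic and maternal genes, moved in both directions in high K+. Of 27 tested, 14 rose and 5 fell, with a median of 1.58, against 14 and 6 and a median of 1.40 in control. The background over all tested genes as deposited was 16.8% rises and 40.2% falls. With the median ratio 18 members rose and 3 fell, with a median of 2.6. All 16276 tested genes then had 4470 rises and 3328 falls. *pou5f3.1*, a zygotic Oct4 homolog, was at 1389, 1121 and 850 at 5-6 h, against 3.27, 21.9 and 150 at 0-1 h in high K+. Control embryos had 1198, 1055 and 708 at 5-6 h and 0.427, 14.9 and 46.4 at 0-1 h. The change was 5.48 ± 1.12 in high K+, or 4.22 without the sample at 0 h, and 6.56 in control. It reached its midpoint at 1.05 h in high K+ and 1.27 h in control and was past its highest level in the late window. Its course peaked in high K+ with 1695 at 3.5 h, and the control course peaked with 2306 at 4.5 h. As deposited, each high K+ sample up to 3.5 h was above the control sample of the same hour. At 2.5 h the values were 1330 in high K+ and 590 in control. Control was above at 4 h (1528 against 1372) and 4.5 h (2306 against 1422), and each point is 1 sample.

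*ventx1.2*, which shares functions with mammalian Nanog, had its highest high K+ value within the late window, at 5.5 h. It was at 400, 461 and 304 at 5-6 h and at 2.70, 5.00 and 28.9 at 0-1 h in high K+, against 344, 348 and 258 at 5-6 h and 0.137, 2.17 and 6.19 at 0-1 h in control. The changes were 5.46 ± 0.71 and 6.73, and their difference of -1.27 ± 1.02 did not pass the test (limma adjusted p = 0.96). *sox2* was at 520, 553 and 512 at 5-6 h and at 5.6, 15.7 and 46.3 at 0-1 h in high K+, and at 725, 598 and 633 at 5-6 h in control, with changes of 4.93 ± 0.63 and 5.78. As deposited, each early high K+ sample of these 3 genes was above the control sample of the same hour. At 1 h the values were 150 against 46.4 for *pou5f3.1*, 28.9 against 6.19 for *ventx1.2* and 46.3 against 43.1 for *sox2*. The spike-in level at 1 h was 0.09 in high K+ and -0.58 in control, so the order for *sox2* depends on the scaling. At 0 h the higher position of high K+ was shared by the late transcripts described above. The part of the sample at 0 h in the differences was not tested apart from the values without it.

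The maternal members *pou5f3.3* and *foxh1* fell in high K+. *pou5f3.3* was at 35.1, 37.3 and 13.3 at 5-6 h, against 2574, 1718 and 2642 at 0-1 h in high K+, and at 27.8, 18.6 and 10.7 at 5-6 h, against 1974, 1199 and 862 at 0-1 h in control. The changes were -6.39 ± 0.40 and -6.08, and 1.24% was left in high K+ and 1.42% in control. *foxh1*, a partner of Smad proteins in Nodal signalling, was at 56.4, 56.7 and 76.7 at 5-6 h and at 1423, 840.0 and 1306 at 0-1 h in high K+, with changes of -4.19 ± 0.25 in high K+ and -3.63 in control. As deposited, each of the 3 late samples of both genes was higher in high K+ than the control sample of the same hour, and so was each early one. The spike-in level at 0 h was 0.65 in high K+ and 0.15 in control, so the order for *pou5f3.3* at 0 h depends on the scaling. *sox3* was at 421, 372 and 371 at 5-6 h and at 750.0, 900.0 and 1053 at 0-1 h in high K+ (-1.20 ± 0.19), but with spike-in scaling its change was -0.97 and with the median ratio -0.16, which ended the call.

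*pou5f3.2*, both maternal and zygotic, was at 606, 431 and 180 at 5-6 h and at 353, 384 and 931 at 0-1 h in high K+, so the windows overlapped (change -0.47 ± 0.53). The highest values of *pou5f3.2* lay between the windows. As deposited, high K+ reached 2906 at 2.5 h, where control stood at 1096. The highest control value was 1311, at 3.5 h, against 1847 for high K+. Only at 4.5 h was control above (1158 against 892), and each point is 1 sample. *myc* had the smallest change of the list, 0.12 ± 0.23, with 115, 106 and 158 at 5-6 h and 91.5, 125 and 132 at 0-1 h. The Wnt pathway genes that the study names differed among themselves. *wnt8a*, a ventrolateral ligand, was at 192, 189 and 89.5 at 5-6 h and at 1.25, 9.68 and 18.8 at 0-1 h in high K+ (4.26 ± 0.76, and 4.26 in control). *tcf7l1*, a repressor at Wnt targets, changed by 1.3 ± 0.24 in high K+ and 1.37 in control, and the receptor gene *fzd7* had a change of 0.33 ± 0.29 in high K+ and 0.25 in control, not called in either.

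**Figure D5:**
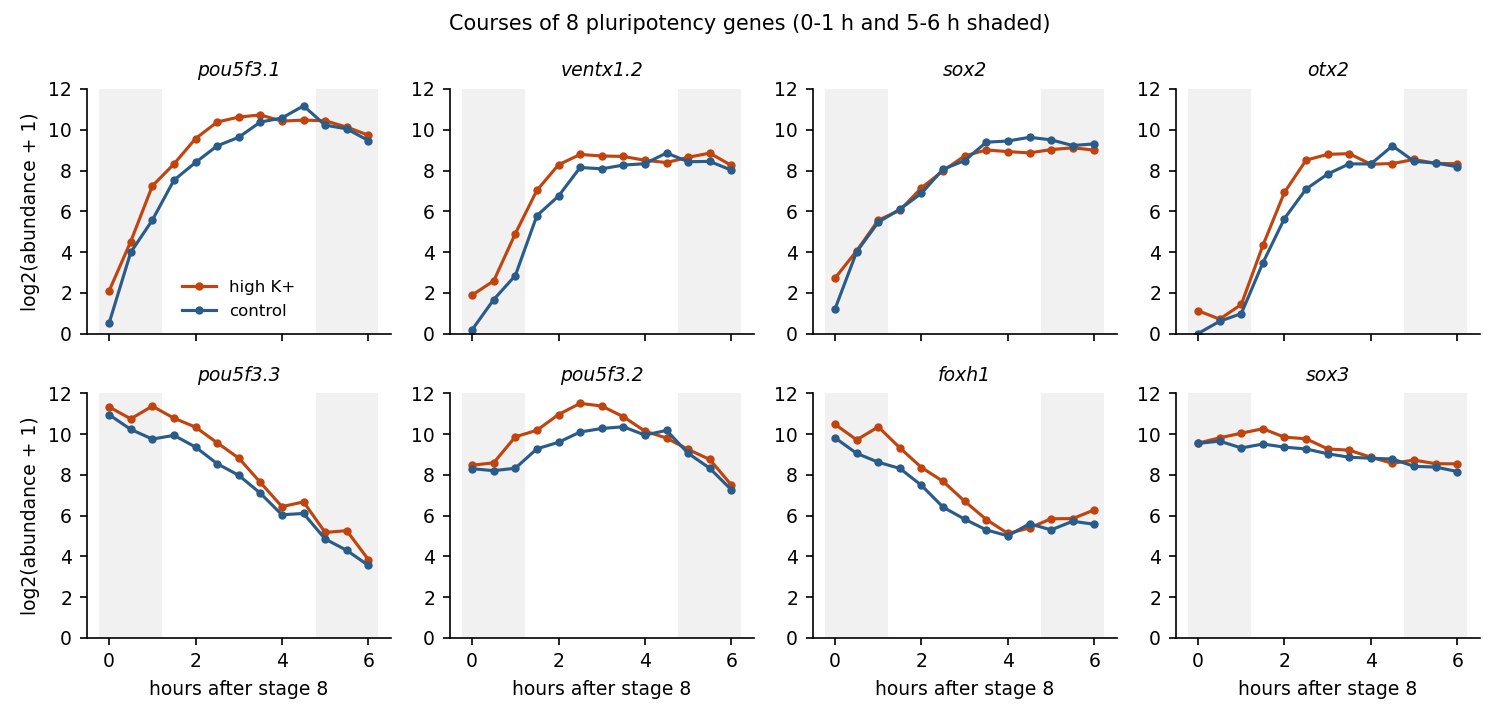
Courses of 8 pluripotency genes over the 13 time points, as log2(abundance + 1) against hours after stage 8, with high K+ and control drawn as separate lines and the windows of 0-1 h and 5-6 h shaded. Each point is 1 sample. *pou5f3.1*, *ventx1.2*, *sox2* and *otx2* end above their start, *pou5f3.3*, *foxh1* and *sox3* end below it, and the change of *pou5f3.2* from window to window was -0.47 in high K+.

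Genes listed as the earliest zygotic wave differed among themselves at 5-6 h. Not all of them started low, since *tdgf1.3*, 1 of the falls, was at 127 in high K+ and 115 in control at 0 h. This list holds the Nodal ligands, their co-receptors and the homeobox genes that stored factors switch on, and 6 of 13 tested members fell in high K+ and 1 rose, with a median of -1.09, against 6 and 3 and a median of -0.36 in control. The share of falls was near the 40.2% of all tested genes, and the median was -0.17 with the median ratio. *nodal* (gene417) was at 0.783, 1.12 and 0.227 at 5-6 h and at 6.22, 51.8 and 96.5 at 0-1 h in high K+, and rose within the opening hour in control as well (6.69, 43.9 and 83.5). Its highest value was 147 in high K+ and 128 in control, both at 1.5 h. *sia2*, a Wnt target of the dorsal side, was listed at 0, 0 and 0.189 at 5-6 h and at 4.96, 51.6 and 30.5 at 0-1 h in high K+ (-4.34 ± 0.73), and *sia1* changed by -3.35 ± 0.98. *nodal2*, with the smallest change, was at 3.42 or less in each high K+ sample of both windows (-0.34 ± 0.51). The gene that rose was the co-receptor *tdgf1.2* (1.90 ± 0.38), named after its value was seen. Without the sample at 0 h, in which *nodal*, *sia1* and *sia2* were lowest of the early window, the median of the list was -2.28, with 7 falls and 1 rise.

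Transcripts of the egg and oocyte fell in 22 of 33 tested genes in high K+ and rose in 2, with a median of -1.47, against 23 and 2 and a median of -2.15 in control. Besides *ccna1*, *btg4* and *wee2*, the list held RNAs that did not pass the test, such as *zpd*, of an egg envelope protein, at 228, 213 and 240.0 at 5-6 h and 180.0, 389 and 171 at 0-1 h in high K+ (-0.01 ± 0.32, and 1.02 with the median ratio). The 2 rises, named after their values were seen, were *prss27*, a serine protease, at 31.2, 22.0 and 14.4 at 5-6 h and 0.0860, 0 and 1.99 at 0-1 h, and *fbxo5*, an inhibitor of the anaphase-promoting complex (1.23 ± 0.22). Relative to all tested genes the median of the list was -0.80, and -0.75 and -0.62 under spike-in scaling and the median ratio.

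Germ plasm transcripts, which egg cytoplasm hands to future germ cells, fell in 15 of 19 tested in both conditions, with a median of -1.67 in high K+ and -2.03 in control. *velo1*, which organizes the germ plasm, was at 7.84, 6.53 and 5.69 at 5-6 h and at 240.0, 144 and 218 at 0-1 h in high K+ (-4.69 ± 0.25). *dnd1*, an RNA-binding protein of germ cells, was at 16.1, 19.1 and 10.6 at 5-6 h and at 220.0, 255 and 212 at 0-1 h (-3.85 ± 0.25). *grip2* left 4.08% of its early level, with a change of -4.08 ± 0.35. *piwil1*, of the piRNA pathway, was at 1.24, 0.884 and 1.29 at 5-6 h and at 1.49, 1.58 and 1.66 at 0-1 h in high K+ (-0.27 ± 0.18), and changed by -1.28 in control, a difference of 1.01 ± 0.41 with a limma adjusted p of 0.96.

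Genes of mitosis and early replication fell in 25 of 38 tested in high K+ and rose in 3, with a median of -1.43, against 28 and 3 and a median of -1.77 in control. After *ccna1* and *ccnb1* the next fall was that of *cdc25a*, the phosphatase that activates Cdks, at 53.1, 55.6 and 61.9 at 5-6 h and at 1405, 1233 and 1750.0 at 0-1 h in high K+ (-4.65 ± 0.19). *mcm2*, a subunit of the replicative helicase, had 148, 148 and 184 at 5-6 h and 101, 197 and 170.0 at 0-1 h (0.08 ± 0.28). The 3 rises, named after their values were seen, were *mcm6.2*, *mcm3* and *ccne2*. *mcm6.2*, the zygotic form of a helicase subunit, was at 71.0, 77.9 and 106 at 5-6 h and at 2.73, 3.54 and 7.21 at 0-1 h in high K+ (4.03 ± 0.34), while *mcm6* fell (-1.85). For *mcm3* the more abundant row (gene3896) rose by 3.12 and a row of the same symbol (gene19482) had -3.00. With the median ratio the mitotic list had 8 rises and 11 falls among 38 genes and the germ plasm list 1 rise and 9 falls among 19. All 16276 tested genes then had 4470 rises and 3328 falls.

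Somatic cell cycle genes moved both ways. Of 21 tested, 7 rose and 5 fell in high K+, with a median of 0.30, against 7 and 4 and a median of -0.02 in control. *cdknx*, a frog Cdk inhibitor, was at 305, 348 and 413 at 5-6 h and at 11.8, 7.75 and 15.9 at 0-1 h in high K+ (4.84 ± 0.28), and *rbl1* (p107), of the retinoblastoma family, changed by 4.09 ± 0.55. *e2f1*, which drives entry into S phase, was at 7.62, 7.43 and 10.1 at 5-6 h and at 154, 258 and 287 at 0-1 h (-4.60 ± 0.28). *btg5* had a change of 0.01 ± 0.25. With the median ratio 13 rose and 1 fell, against 4470 rises and 3328 falls among all 16276 tested genes.

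Retinoic acid genes rose in 5 of 14 tested and fell in 3 in both conditions, with a median of 0.28 in high K+ and 0.49 in control. With the median ratio 8 rose and 1 fell in high K+, with a median of 1.17. The background with that scaling was 4470 rises and 3328 falls among 16276 tested genes, and as deposited 16.8% rises and 40.2% falls. *crabp2*, which carries retinoic acid to its receptors, was at 241, 256 and 340.0 at 5-6 h and at 2.09, 0.0609 and 0 at 0-1 h in high K+ (7.54 ± 0.45). The receptor gene *rara* changed by 3.11 ± 0.28 and the degrading enzyme *cyp26c1* by 2.89 ± 0.23, while *rxrb* had a change of 0.04 ± 0.29. Notch genes rose in 9 of 22 and fell in 6 in both conditions, with a median of -0.27 in high K+ that turned to 0.51 with the median ratio, where 10 rose and 2 fell. The ligand genes *dlc* (5.37 ± 0.23) and *dll1* (5.31 ± 0.24) and the target *hes3.1* (5.33 ± 0.29) led the rises, and the ligand gene *jag1* had a change of 0.06 ± 0.27.

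Matrix genes rose in 8 of 17 tested in both conditions, with a median of 0.98 in high K+ and 0.97 in control, and in 13 with the median ratio in high K+. With that scaling 4470 of all 16276 tested genes rose. *lamb1*, a laminin chain, was at 32.4, 28.9 and 61.8 at 5-6 h and at 0.518, 0.0209 and 0.0609 at 0-1 h in high K+ (5.07 ± 0.35). *has2*, which makes hyaluronan, changed by 3.84 ± 0.89 and the laminin gene *lama1* by 3.12 ± 0.32. *fn1* (fibronectin) was at 80.1, 78.0 and 95.3 at 5-6 h and at 70.0, 64.5 and 99.3 at 0-1 h in high K+, and at 82.0, 81.6 and 79.7 at 5-6 h and 59.0, 44.3 and 33.7 at 0-1 h in control. The windows overlapped in high K+ and not in control, and the difference of -0.72 ± 0.32 had a limma adjusted p of 0.96.

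Cytosolic ribosomal proteins rose in 72 of 77 tested in high K+, with a median of 2.44, against 73 of 77 and 2.55 in control. *rpl34* (gene7213) was at 1184, 1135 and 1534 at 5-6 h and at 42.6, 40.1 and 39.3 at 0-1 h in high K+ (4.94 ± 0.18), *rpl37* changed by 4.73 ± 0.24 and *rps23* by 4.21 ± 0.24. The exception with the smallest change was *rplp0*, of the ribosomal stalk, at 453, 435 and 608 at 5-6 h and at 526, 339 and 602 at 0-1 h in high K+ (0.05 ± 0.26). Its level in high K+ was above control at each of these hours. Proteasome subunits by comparison rose in 9 of 34 and fell in 2 in both conditions, with a median of 0.55 in high K+ and 0.43 in control, and with the median ratio 29 rose and 1 fell in high K+. The background as deposited was 16.8% rises and 40.2% falls in high K+, and with the median ratio 4470 rises and 3328 falls among 16276 genes. The ATPase subunits *psmc2* (1.89 ± 0.31) and *psmc6* (1.81 ± 0.29) led, *psmd6* had a change of 0.04 ± 0.19, and *psmd5*, an assembly chaperone, was at 14.6, 11.8 and 13.7 at 5-6 h and at 137, 88.6 and 150 at 0-1 h in high K+ (-3.10 ± 0.25).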

How the data were processed

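RNA from 26 pools of whole embryos was measured. The authors aligned reads with STAR to the Xt9.1 genome plus ERCC spike-in sequences, estimated TPM per isoform with RSEM (versions are not given in the sources used here), and corrected them for dinucleotide content with a linear model on the logarithm of TPM. The deposited values are a signal, the corrected isoform abundances added up per gene. The model raised TPM to a power fitted separately in each condition, so changes in high K+ and control stand on separately fitted scales, and the part of this in their differences was not tested. Genes that the study left out for excessive correction were not removed here. No genome sequence was used.

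A gene was tested where its abundance exceeded 0.4 in at least 3 of the 6 high K+ or 3 of the 6 control samples. Of the 16276 genes, 15696 passed in high K+ samples, 1080 of them with no early sample above 0.4. limma 3.58.1 in R 4.3.3 was fitted with an abundance trend to log2(abundance + 1), to 6 samples for each condition and to 12 for the difference of the changes. Tables and figures used Python 3.11.15, pandas 2.3.3, numpy 2.4.6 and matplotlib 3.10.9. The fit was tested on simulated data in which 200 of 16276 genes were changed. It called 36%, 54%, 76% and 90% of log2 changes of 1.5, 2, 3 and 4, and 4 of 16076 unchanged genes. In the data 9264 genes were called in high K+, so these shares need not hold there.

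Named genes were the 10 rises and 10 falls with the largest change, a symbol and a mean of at least 20 in the higher window, then from each of 19 lists the 3 called members with the largest change and the member with the smallest, then 6 genes in each direction for the difference, and the genes the study names for these data. Where several rows share a symbol, the row with the highest mean was used. Members and lists were chosen with earlier results of these data known. Alternatives were other scalings, pseudocounts, filters and variance models, each sample left out and time point as a block. Samples of the same hour in the 2 conditions deviated together in 5 of 6 pairs (correlation over 0.1), not in all. The main fit did not treat the hours as pairs, which leaves spread shared by hour in its error.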

Additional observations from a re-analysis of the deposited data

Results flagged for a closer look

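The 8 genes whose change differed between the conditions by the interaction term are given as values. The fitted differences, high K+ minus control, depend on the added 1, since each gene has a group listed at 0. gene12459 (8.08), gene13580 (2.77) and LOC108645625 (4.26) were listed above 0 only at 5-6 h in high K+, and for gene12459 these values were 382, 226 and 226. The values of gene12459 and gene13580 were identical at 5.5 and 6 h, as for 85 of the 16276 tested genes (36 to 85 over the 8 pairs of neighbouring samples), and such repeats narrow the spread behind the SE and the call. gene9910 (4.34) was at 398, 335 and 553 at 5-6 h in high K+ and at 35.8, 18.2 and 33.5 in control. gene14857 (-4.03) was listed above 0 only at 5-6 h in control, and gene10701 (1.23) only at 0-1 h in control. LOC101730811 (-6.08) was at 38.6, 47.8 and 95.9 at 5-6 h and 81.9, 54.5 and 183 at 0-1 h in high K+, against 76.1, 30.6 and 26.9 at 5-6 h and 0 before in control. LOC100487636 (-3.25) was at 2.36, 4.75 and 8.10 at 5-6 h in high K+ and at 26.1, 35.5 and 43.6 in control.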

How the results depend on the processing

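Some settings moved a count of calls by over 1.5 times. The median ratio gave 4470 rises and 3328 falls in high K+, and 4627 and 3478 in control. With a pseudocount of 10 the counts were 1461 higher and 4169 lower in high K+ and 1389 and 4647 in control. With genes above 1 in each of the 12 samples, chosen after seeing the data, 936 were higher in high K+ and 868 in control, and no difference was called. Leaving out single samples moved the counts within each condition by less, and high K+ counts ranged from 2484 to 2806 higher and 6230 to 6939 lower, and control counts from 2473 to 2705 higher and 6482 to 7339 lower. For the difference, 8 genes were higher and 5 lower with a pseudocount of 0.1, 3 higher with a pseudocount of 10, 1 higher with the filter on 6 consecutive samples, and 3 higher and 1 lower without both samples at 0 h. Without single samples, 3 to 7 were higher and 2 to 6 lower. With time point as a replicate block the difference again gave 5 and 3 calls, 6 of them the same genes, and 1179 genes had an unadjusted p under 0.05.

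Of the 106 named genes, 101 kept direction and side of the threshold in high K+ with spike-in scaling, 84 with the median ratio, 98 with a pseudocount of 10 and 96 without the high K+ sample at 0 h. *zpd* turned to a called rise of 1.02 with the median ratio. The limits are 1 course per condition, unknown depth, and corrections fitted per condition. Changes near the median shift of all genes (-0.67) depend on scaling, and low genes on the pseudocount.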
